A study of Saccharomyces cerevisiae with 9 samples.

Results

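The yeast pheromone pathway is described here through 10 genes that encode its G protein subunits, its scaffold, its kinases and their nuclear targets, out of 5311 Saccharomyces cerevisiae genes tested. The genes and their classes were chosen with earlier results of these data known. The genes were found by symbol in the probe annotation, and each had 1 probe set among the 5359 tested. Of these, 7 are known as haploid-specific genes, which haploid cells of either mating type express and a/alpha diploid cells repress: GPA1 (YHR005C), STE4 (YOR212W), STE18 (YJR086W), STE5 (YDR103W), FUS3 (YBL016W), STE12 (YHR084W) and FAR1 (YJL157C). The other 3, STE7 (YDL159W), STE11 (YLR362W) and KSS1 (YGR040W), are known to be expressed in all cell types. The RNA came from SK1, a laboratory yeast that sporulates efficiently, either wild type (WT) or lacking IME4, an RNA methyltransferase gene (ime4-/-, here ime4). Cells were taken after 4 h in sporulation medium with 1% potassium acetate (SPO) or from growth in the rich medium YPD. There were 2 arrays of ime4 in SPO, 3 of WT in SPO, 2 of ime4 in YPD and 2 of WT in YPD, described by the labels as biological replicates. Mating type, ploidy and the extent of the IME4 deletion are not given in the sources used here.

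In a haploid yeast cell a pheromone receptor at the surface activates a heterotrimeric G protein. Gpa1 is its alpha subunit, and the Ste4-Ste18 dimer that it releases recruits the scaffold Ste5, on which the kinases Ste11, Ste7 and Fus3 act in turn. Fus3 then activates the transcription factor Ste12 and Far1, which stops the cell cycle in G1 before mating. Kss1 is a second MAP kinase downstream of Ste7, used mainly in filamentous growth, and Ste11 also serves the osmotic stress pathway. A diploid a/alpha cell makes the repressor a1-alpha2, which shuts down the haploid-specific genes so that the cell neither responds to pheromone nor mates.

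The values are log2 of the deposited RMA intensity, and a difference of 1 is a 2-fold change. The arrays also carry 1412 probe sets for a second yeast species, and the 95th percentile of their values was taken as background on each array. All 90 values of the 10 genes lay above it, by at least 2.04 log2. Replicate arrays correlated with r from 0.9981 to 0.9986 over the tested probe sets. The IME4 probe set was above background on no ime4 array and on every WT array, where it averaged 7.12 in SPO and 5.35 in YPD. The mating-type transcripts differed between the genotypes as well. The alpha1 transcript averaged 7.71 in ime4 and 3.98 in WT in SPO, and 8.91 in ime4 and 4.20 in WT in YPD. The a1 transcript was above background on 1 of 2 ime4 arrays and on all 3 WT arrays (mean 8.79) in SPO, and on no ime4 array and both WT arrays (mean 8.04) in YPD. The HMRA2 probe set, whose gene shares sequence with the alpha2 gene, was higher in ime4 as well, by 1.43 log2 in SPO and 1.12 in YPD. Genes expressed by a cells alone were lower in ime4 in both media (7 of 7), and those expressed by alpha cells alone were higher (5 of 5). Of all tested sets, 39.4% were lower in SPO and 18.7% in YPD, and 34.1% and 21.3% were higher. In WT in YPD the a-cell genes averaged from 5.17 (ASG7) to 10.56 (MFA2). The alpha-cell genes averaged from 4.04 (STE3) to 7.11 (MF(ALPHA)2) there. Whether WT was an a/alpha diploid was not tested. The effect of the IME4 deletion and that of the mating-type pattern therefore cannot be told apart in these arrays. In RNA from whole cultures, a change in the share of cells of a type and a change in RNA per cell cannot be told apart either.

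All 7 haploid-specific genes were higher in ime4 than in WT, in SPO and in YPD. Their median difference was 1.08 log2 in SPO (range 0.735 to 1.75) and 1.45 in YPD (range 0.678 to 1.76). The median over the 3 genes expressed in all cell types was -0.273 in SPO (range -0.395 to 0.239) and 0.191 in YPD (range 0.107 to 0.245). Over all tested probe sets the medians were -0.0369 in SPO and 0.0191 in YPD. A gene is called higher or lower, or is said to rise or fall, when its Benjamini-Hochberg adjusted p from limma, over all tested probe sets, was under 0.05. By this rule 34.1% of the tested probe sets were higher in ime4 in SPO and 21.3% in YPD, and 7.99% were higher in both media. The shares lower in ime4 were 39.4% in SPO and 18.7% in YPD. With a 2-fold difference required as well, 6 of the 7 haploid-specific genes passed in SPO, where 5.71% of all tested sets did, and 5 of 7 passed in YPD, where 0.97% did. The sixth gene in SPO was STE12, which fell short of 2-fold with the replicate block (log2 0.996) and without ime4 replicate 2 (0.982), WT replicate 1 (0.988) or WT replicate 3 (0.996) in SPO, so that 5 of 7 passed there. GPA1, STE4, STE18, STE5 and FUS3 passed both, as did 0.392% of all tested sets. For none of the 7 did an ime4 array overlap a WT array in the same medium, and the same held for STE7, STE11 and KSS1. This separation of arrays therefore did not set the 7 genes apart. It also occurred for STE7 and STE11 in YPD, whose differences did not pass (adjusted p = 0.0737 and 0.202). The share of all tested sets without overlap was not computed.

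**Figure D1:**
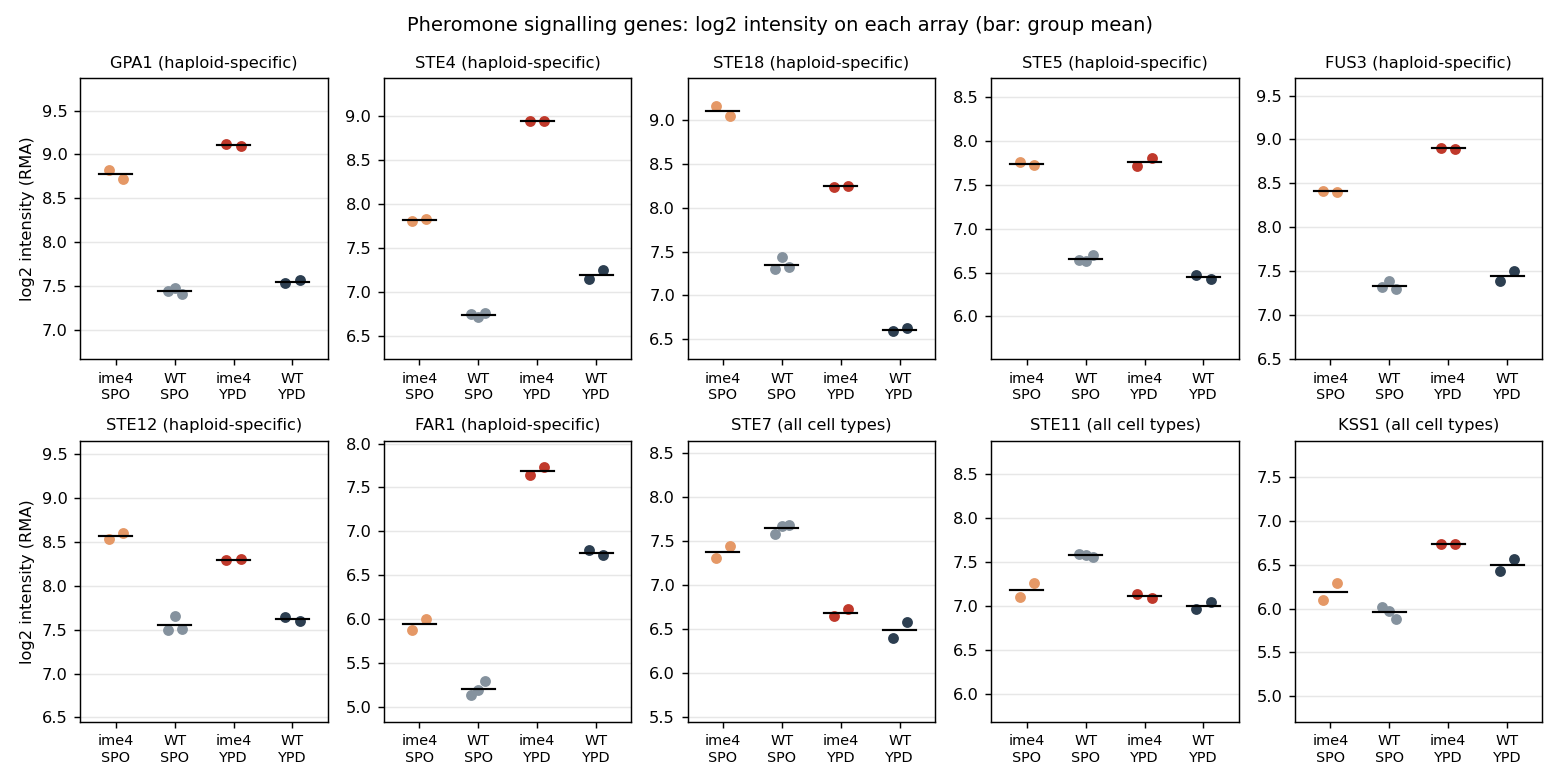
Log2 intensity (vertical axis, RMA) of each of the 10 genes on each array. Points are arrays, bars are group means, and each panel spans 3.2 log2 but has its own level, so values are read within a panel only. The ime4 points lie above the WT points of the same medium in the 7 haploid-specific panels, and the group means differ by 0.735 log2 (FAR1 in SPO) to 1.75 (STE18 in SPO) in SPO and 0.678 (STE12) to 1.76 (STE4) in YPD.

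In YPD the genes of the 3 G protein subunits had the largest genotype differences of the 10. GPA1, whose protein holds the signal off until a receptor is occupied, read 8.82 and 8.72 on the ime4 arrays in SPO, against 7.44, 7.47 and 7.41 in WT. In YPD it read 9.12 and 9.09 in ime4, against 7.53 and 7.56 in WT. The highest WT value of GPA1 in either medium was thus more than 1 log2 below its lowest ime4 value. GPA1 was 2.52-fold higher in ime4 in SPO (log2 1.33, SE 0.0475, adjusted p = 2.88e-08) and 2.95-fold higher in YPD (log2 1.56, SE 0.052, adjusted p = 5.79e-08).

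STE4 encodes the beta subunit, which carries the signal once it is free of Gpa1. Its values in SPO were 7.80 and 7.83 in ime4, against 6.75, 6.72 and 6.75 in WT. In YPD they were 8.95 and 8.95 in ime4, against 7.14 and 7.24 in WT. STE4 was lower in SPO than in YPD in both genotypes, and the ime4 arrays in SPO still stood above both WT arrays in YPD. The gap between genotypes was 1.08 log2 in SPO (SE 0.046, adjusted p = 7.09e-08) and 1.76 in YPD (SE 0.0503, adjusted p = 2.02e-08). Of the 5359 tested probe sets, STE4 had the 241st highest difference in SPO and the 15th highest in YPD.

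STE18 encodes the gamma subunit, which anchors the dimer to the membrane. It read 9.15 and 9.05 in ime4 in SPO, against 7.30, 7.44 and 7.33 in WT. In YPD its values were 8.24 and 8.25 in ime4, against 6.60 and 6.63 in WT. Unlike STE4, this gene was higher in SPO than in YPD in both genotypes, with no overlap of arrays. STE18 was 3.36-fold higher in ime4 in SPO (log2 1.75, SE 0.0557, adjusted p = 1.72e-08), the 39th highest difference of the tested sets, and 3.10-fold higher in YPD (log2 1.63, SE 0.061, adjusted p = 1.36e-07), the 17th highest.

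The genes of the scaffold and the mating MAP kinase were more than 2-fold higher in ime4 in both media. STE5, the scaffold that holds the kinases together, read 7.76 and 7.72 in ime4 in SPO, against 6.64, 6.63 and 6.69 in WT. In YPD it read 7.72 and 7.80 in ime4, against 6.47 and 6.42 in WT. The ime4 arrays of SPO and YPD overlapped each other, while the WT arrays in SPO lay slightly above those in YPD. Its difference was 1.09 log2 in SPO (SE 0.0473, adjusted p = 7.96e-08) and 1.31 in YPD (SE 0.0518, adjusted p = 1.84e-07).

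FUS3, the MAP kinase gene dedicated to mating, read 8.41 and 8.41 in ime4 in SPO, against 7.32, 7.38 and 7.29 in WT. In YPD its values were 8.90 and 8.89 in ime4, against 7.38 and 7.51 in WT. The WT arrays of SPO and YPD all but met, whereas the ime4 arrays in SPO lay below those in YPD. FUS3 was 2.11-fold higher in ime4 in SPO (log2 1.08, SE 0.0509, adjusted p = 1.37e-07) and 2.74-fold higher in YPD (log2 1.45, SE 0.0558, adjusted p = 1.51e-07).

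The nuclear end of the pathway showed smaller gaps in YPD. STE12, which encodes the activator of mating and filamentation genes, read 8.53 and 8.60 in ime4 in SPO, against 7.50, 7.65 and 7.51 in WT. In YPD it read 8.29 and 8.31 in ime4, against 7.64 and 7.60 in WT. STE12 had the smallest YPD difference of the 7 genes, 0.68 log2 (SE 0.0619, adjusted p = 4.23e-05), and a difference of 1.02 in SPO (SE 0.0565, adjusted p = 3.27e-07), just past 2-fold.

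FAR1 encodes an inhibitor of the G1 cyclin-dependent kinase that also guides polarity towards the mating partner. Its values in SPO were 5.88 and 5.998 in ime4, against 5.13, 5.19 and 5.30 in WT. In YPD they were 7.65 and 7.73 in ime4, against 6.78 and 6.73 in WT. The medium separated the FAR1 arrays more widely than the genotype did, and every SPO array lay below every YPD array. In ime4 the gene was 1.67-fold higher in SPO (log2 0.74, SE 0.0627, adjusted p = 4.87e-06) and 1.91-fold higher in YPD (log2 0.93, SE 0.0687, adjusted p = 1.14e-05). FAR1 had the 560th highest difference of the tested sets in SPO and the 61st in YPD.

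The kinases found in all cell types did not share these gaps. STE7, the MAP kinase kinase gene, read 7.30 and 7.45 in ime4 in SPO, against 7.59, 7.68 and 7.68 in WT, and was lower in ime4 by 0.27 log2 (log2 -0.27, SE 0.0692, adjusted p = 0.00573). That call was lost without ime4 replicate 1 in SPO (adjusted p = 0.0615). In YPD it read 6.64 and 6.72 in ime4, against 6.40 and 6.58 in WT, a difference of 0.19 that did not pass (95% interval 0.02 to 0.362, adjusted p = 0.0737). It passed with a replicate block in the fit (adjusted p = 0.0299), without the dimmest 25% of probe sets (0.0419) and without WT replicate 2 in YPD (0.0295).

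STE11, the kinase gene at the top of the cascade, read 7.10 and 7.26 in ime4 in SPO, against 7.60, 7.58 and 7.56 in WT. Its difference in SPO was -0.40 log2 (SE 0.0568, adjusted p = 0.00017), the opposite direction to its partner FUS3. In YPD its values were 7.14 and 7.09 in ime4, against 6.96 and 7.05 in WT, and the difference of 0.11 did not pass (95% interval -0.033 to 0.248, adjusted p = 0.202). This interval lies below the YPD intervals of all 7 haploid-specific genes, of which the lowest, for STE12, begins at 0.538.

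KSS1, the MAP kinase gene of filamentous growth, read 6.10 and 6.29 in ime4 in SPO, against 6.02, 5.97 and 5.88 in WT. In YPD it read 6.74 and 6.74 in ime4, against 6.43 and 6.56 in WT. Its differences were small but passed in both media, at 0.24 log2 in SPO (SE 0.0693, adjusted p = 0.0114) and 0.25 in YPD (SE 0.0759, adjusted p = 0.0297). Both calls were lost with quantile normalization (adjusted p = 0.285 in SPO and 0.0598 in YPD). The SPO call was also lost without ime4 replicate 2 in SPO (0.12), and the YPD call without WT replicate 1 (0.17) or either ime4 array in YPD (0.0986 and 0.0997).

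**Figure D2:**
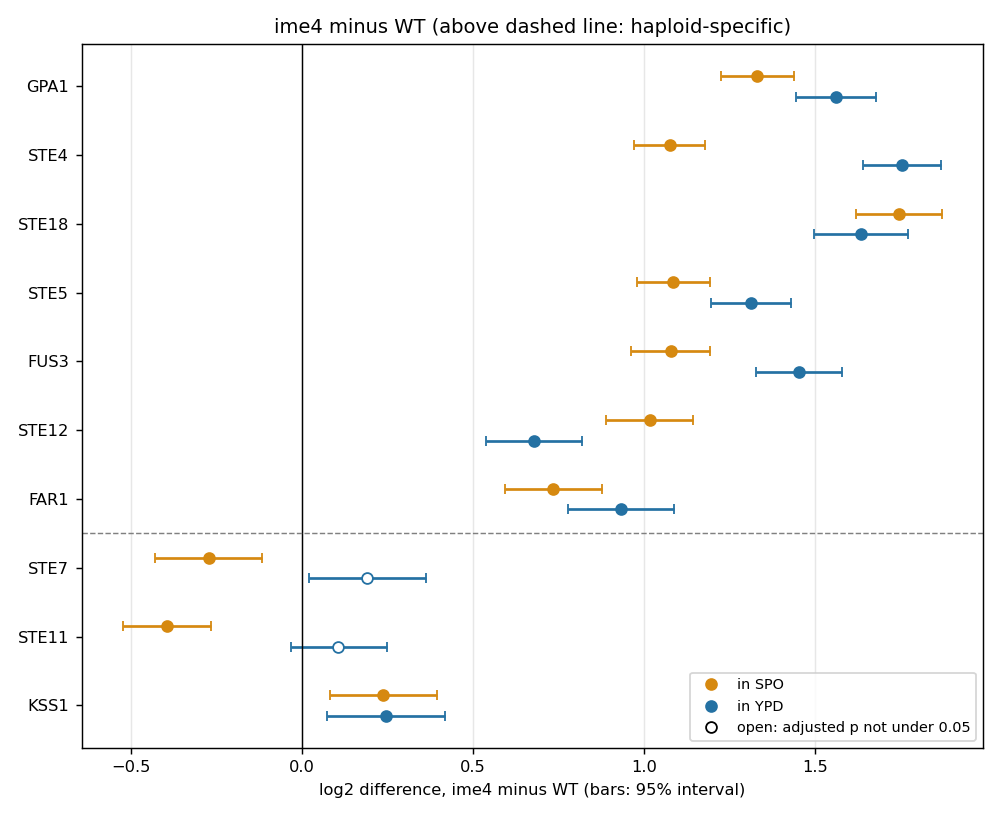
Difference in log2 intensity between ime4 and WT (horizontal axis) for each gene in SPO and in YPD. Points are limma estimates with 95% intervals, filled where the adjusted p was under 0.05. The haploid-specific genes above the dashed line lie between 0.678 and 1.76, and STE7, STE11 and KSS1 below it lie between -0.395 and 0.245.

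Ratios taken within an array show whether the transcripts of partners changed unequally. Fus3 and Kss1 are paralogous MAP kinases that share the kinase Ste7. The log2 ratio of FUS3 to KSS1 was 2.31 and 2.12 in ime4 in SPO, against 1.30, 1.41 and 1.41 in WT, and 2.16 and 2.15 in ime4 in YPD, against 0.96 and 0.94 in WT. Every ime4 array was higher than every WT array, by 0.839 in SPO and 1.21 in YPD on average. An exact two-sided permutation test of the genotype labels within media gave p = 0.0167 for the mean of 1.02. This is the smallest value that the 60 arrangements of the exact permutation test allow. Adjusted over the 3 ratios tested, the exact permutation value was 0.05, which is not under the threshold. A lone ratio at the smallest value could not fall under 0.05 after this adjustment, however large its change. The adjusted value therefore cannot decide whether this ratio changed. The ratio of GPA1 to STE4 was 0.257 higher in ime4 than in WT in SPO and 0.194 lower in YPD (difference -0.194), with a mean of 0.032 (exact permutation p = 0.75, also after adjustment). That of STE18 to STE4 was 0.671 higher in ime4 in SPO and differed by -0.122 in YPD (mean 0.274, exact permutation p = 0.15, adjusted 0.225). Shifts of opposite sign cancel in such a mean, and an unequal change within 1 medium was not tested. In SPO the GPA1 to STE4 ratio was 1.02 and 0.89 in ime4, against 0.69, 0.76 and 0.65 in WT. The STE18 to STE4 ratio in SPO was 1.35 and 1.22 in ime4, against 0.55, 0.72 and 0.57 in WT.

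Between SPO and YPD the 10 genes did not move together. In ime4, 3 of the 10 rose and 5 fell, where 44% of all tested probe sets rose and 42% fell. In WT, 4 rose and 3 fell, where 46.9% of the tested sets rose and 43.1% fell. The WT count depended on the scaling, with 4 that rose and 6 that fell under quantile normalization, and 3 that rose and 6 that fell with centring of the arrays. Rises and falls together made up 86% of the tested sets in ime4 and 90% in WT (89.9% under quantile normalization, where all 10 members passed).

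FAR1 had the largest fall of the 10. Its mean was 5.94 in SPO and 7.69 in YPD in ime4 (log2 -1.75, SE 0.0687, adjusted p = 6.96e-09), and 5.20 in SPO and 6.75 in YPD in WT (log2 -1.55, SE 0.0627, adjusted p = 4.63e-09). This was the 261st lowest difference of the tested sets in ime4 and the 676th lowest in WT. STE4 fell by 1.13 log2 in ime4 (adjusted p = 1.6e-08) and by 0.45 in WT (adjusted p = 6.31e-06). KSS1 fell by 0.54 in ime4 (adjusted p = 8.37e-05) and by 0.54 in WT (adjusted p = 3.99e-05). GPA1 and FUS3 fell in ime4, by 0.34 (adjusted p = 0.000178) and 0.49 (adjusted p = 1.84e-05). In WT their differences were -0.11 and -0.11, which did not pass (adjusted p = 0.0584 and 0.0558) but did with quantile normalization (0.0034 and 0.00503), with centring of the arrays (0.00224 and 0.00267) and without the dimmest probe sets (0.0473 and 0.0423). GPA1 also passed without either ime4 array in SPO (0.0464 each), and FUS3 without WT replicate 1 in YPD (0.0201) or WT replicate 2 in SPO (0.0398).

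STE7 and STE18 rose in both genotypes. STE7 rose by 0.69 log2 in ime4 (SE 0.0758, adjusted p = 1.38e-05) and by 1.16 in WT (SE 0.0692, adjusted p = 9.88e-08). STE18 rose by 0.85 in ime4 (SE 0.061, adjusted p = 5.3e-07) and by 0.74 in WT (SE 0.0557, adjusted p = 5.88e-07). The Ste4-Ste18 dimer thus was encoded by genes that moved in opposite directions between the media. STE11 rose by 0.57 in WT (adjusted p = 5.11e-06), and its difference in ime4 was 0.07 (95% interval -0.068 to 0.213, adjusted p = 0.294). STE5 rose by 0.21 in WT (adjusted p = 0.00212, or 0.0663 with centring of the arrays), and its difference in ime4 was -0.02 (adjusted p = 0.743). STE12 rose by 0.27 in ime4 (adjusted p = 0.00233), and its difference in WT was -0.07 (adjusted p = 0.28). With quantile normalization or centring, STE12 fell in WT (adjusted p = 0.0131 in each case).

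**Figure D3:**
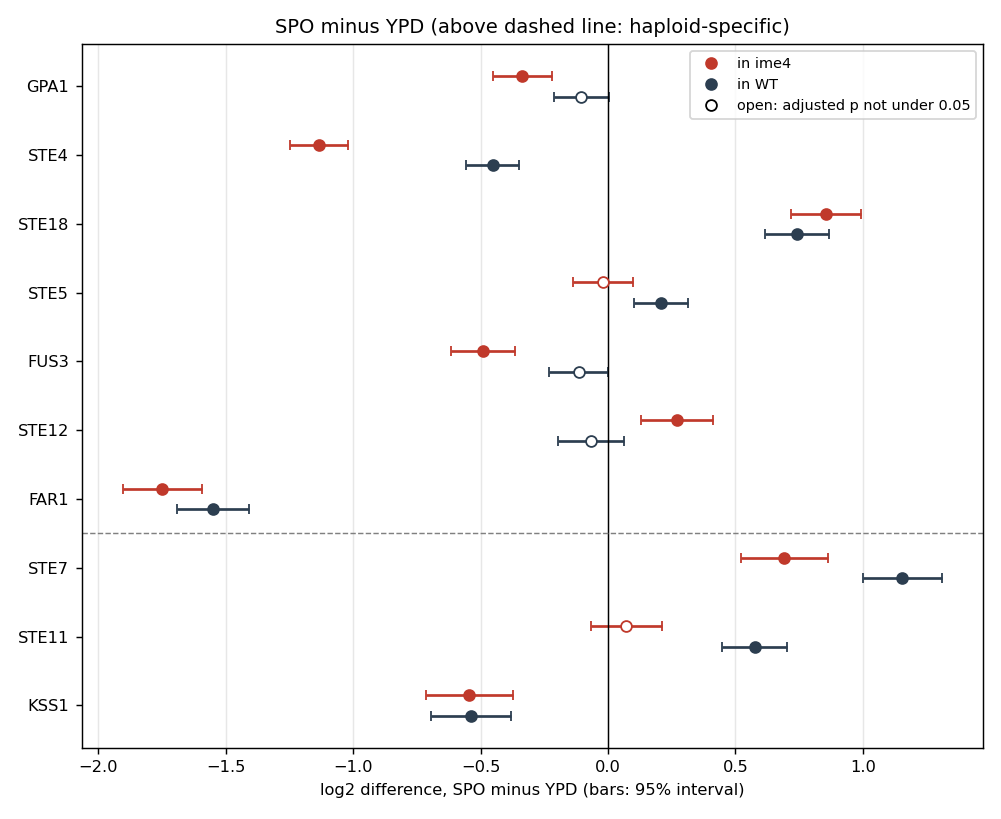
Difference in log2 intensity between SPO and YPD (horizontal axis) for each gene in ime4 and in WT. Points are limma estimates with 95% intervals, filled where the adjusted p was under 0.05. FAR1 lies at -1.75 in ime4 and -1.55 in WT, STE7 at 0.692 and 1.16, and STE4 and STE18 lie on opposite sides of 0.

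The interaction asks whether the ime4 to WT difference in SPO was larger or smaller than in YPD. It passed for 7 of the 10 genes, as it did for 64.1% of the tested sets. The value was positive for 1 of them and negative for 6, against 29.5% and 34.6% of the tested sets. STE4 had the most negative value, -0.68 log2 (SE 0.0682, adjusted p = 2.56e-05). It was followed by STE11 (-0.50, adjusted p = 0.000643), STE7 (-0.46, adjusted p = 0.00334) and FUS3 (-0.375, adjusted p = 0.00194). STE12 was the member with a positive call, at 0.34 (SE 0.0839, adjusted p = 0.00609). GPA1 (-0.23, adjusted p = 0.0175) and STE5 (-0.23, adjusted p = 0.0186) passed narrowly. The GPA1 call was lost with quantile normalization (0.169) and centring (0.0646), and without ime4 replicate 1 in YPD (0.0543), WT replicate 1 in YPD (0.0532) or ime4 replicate 2 in SPO (0.062). The STE5 call was lost with centring (0.0736) and the replicate block (0.0567), and without replicate 2 of ime4 in YPD (0.0718), of WT in YPD (0.0591) or of ime4 in SPO (0.0551). STE18 (0.11, 95% interval -0.074 to 0.3), FAR1 (-0.20, 95% interval -0.409 to 0.011) and KSS1 (-0.0067, 95% interval -0.239 to 0.226) did not pass, with adjusted p = 0.257, 0.0885 and 0.963. STE18 passed with quantile normalization (0.0325).

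The genes whose log2 intensity followed each member most closely over the 9 arrays were found among 3094 tested probe sets (3095 for STE11 and KSS1) with a range of at least 1 log2. These correlations are a description, since the arrays share genotype and medium. GPA1 was closest to the alpha1 transcript (r = 0.9986), to FRE4, a ferric reductase gene (0.9954), and to FUS3 (0.9940). FUS3 was closest to alpha1 (0.9958), GPA1 (0.9940) and the alpha-factor gene MF(ALPHA)1 (0.9937). STE4 was closest to AFB1, which encodes the a-factor barrier protein (0.9898), to the recombination gene RDH54 (0.9808) and to MF(ALPHA)1 (0.9785). STE5 was closest to MHF2 (0.9791), GPA1 (0.9710) and alpha1 (0.9688), and STE12 to MHF2 (0.9639), STE5 (0.9514) and the end-joining gene NEJ1 (0.9487). STE18 was closest to the a-factor protease gene AXL1 (0.9457), the actin kinase gene ARK1 (0.9259) and STE5 (0.9239). Nearest neighbours of GPA1, FUS3, STE5, STE12 and STE18 thus included another of the haploid-specific members.

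None of the 3 nearest neighbours of FAR1, STE4, STE7, STE11 or KSS1 was a member. STE11 and KSS1 could not be a neighbour of any gene, since their ranges (0.635 and 0.859 log2) were below 1. FAR1 was closest to DUS4, a tRNA dihydrouridine synthase gene (0.9979), to AMN1, an antagonist of mitotic exit that is also among the other haploid-specific genes (0.9969), and to the dihydrofolate reductase gene DFR1 (0.9955). STE7 was closest to the mitochondrial NAD carrier gene YEA6 (0.9951), the peroxisomal gene PEX28 (0.9951) and ULI1 (0.9946). STE11 was closest to the vacuolar iron transporter gene CCC1 (0.9861), HEL1 (0.9849) and the aromatic aminotransferase gene ARO9 (0.9843). KSS1 was closest to the DNA helicase gene PIF1 (0.9935), YDR541C (0.9912) and YMD8 (0.9865). FUS3 and KSS1 correlated with each other at r = 0.646. Of the members, KSS1 correlated most closely with FAR1 (r = 0.974), which is in the haploid-specific class.

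Other haploid-specific genes were higher in ime4 as well. Of 5 examined, all 5 were higher in SPO (median 0.53 log2) and 4 in YPD (median 0.739). The shares of all tested sets that were higher were 34.1% in SPO and 21.3% in YPD. In ime4, NEJ1, a regulator of DNA end joining, was 1.03 log2 higher in SPO (adjusted p = 8.57e-07) and 0.74 higher in YPD (adjusted p = 7.29e-05). AXL1, also needed for axial budding, was 0.72 higher in SPO (adjusted p = 1.77e-05) and 1.11 in YPD (adjusted p = 1.14e-05). RME1, a repressor of meiotic entry, was 0.30 higher in SPO (adjusted p = 0.00234) and 1.72 in YPD (adjusted p = 2.44e-07). AMN1 was 0.42 higher in SPO (adjusted p = 0.000368) and 0.52 in YPD (adjusted p = 0.000589). HO, the mating-type switching endonuclease gene, was 0.53 higher in SPO (adjusted p = 0.000896), and its difference in YPD was 0.20 (adjusted p = 0.18).

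Upstream of the G protein the receptor and pheromone genes split by mating type. STE2, the alpha-factor receptor gene of a cells, averaged 4.99 in ime4 and 8.45 in WT in SPO. STE3, the a-factor receptor gene of alpha cells, averaged 8.04 in ime4 and 4.58 in WT in SPO. Of 7 genes of receptors, pheromones and a-factor export, 3 were higher and 4 lower in ime4 in each medium. The shares of all tested sets were 34.1% higher and 39.4% lower in SPO, and 21.3% and 18.7% in YPD. STE3 was 3.46 log2 higher in SPO and 5.86 in YPD, MF(ALPHA)1 4.34 and 5.59, and MF(ALPHA)2 0.60 and 2.20. STE2 differed by -3.46 in SPO and -6.87 in YPD, MFA1 by -2.08 and -2.34, MFA2 by -4.94 and -7.61, and the a-factor exporter gene STE6 by -1.82 and -2.73. STE2 was above background on 1 of 2 ime4 arrays in YPD and MFA2 on neither, so the size of those YPD differences is uncertain.

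Of 15 other components of the pathway, 9 were higher and 2 lower in ime4 in SPO (median 0.155 log2), and 10 were higher and 2 lower in YPD (median 0.244). Over all tested sets 34.1% were higher and 39.4% lower in SPO, and 21.3% were higher and 18.7% lower in YPD. SST2, which encodes the regulator that switches Gpa1 off, had the largest difference, 1.04 in SPO (adjusted p = 2.41e-07) and 0.90 in YPD (adjusted p = 6.39e-06). It was the only gene of this list past 2-fold in SPO, and no gene of the list was past it in YPD. STE20, the kinase gene upstream of STE11, was 0.62 higher in SPO (adjusted p = 1.75e-06) and lower in YPD (difference -0.18, adjusted p = 0.0182). SYG1, a suppressor of the loss of GPA1, was 0.63 higher in SPO (adjusted p = 5.58e-06) and lower in YPD (difference -0.19, adjusted p = 0.031). DIG1, a repressor of Ste12, was 0.43 higher in YPD (adjusted p = 0.00068), and STE50, the adaptor of Ste11, 0.49 higher in YPD (adjusted p = 0.00031). Their differences in SPO were -0.08 and 0.06 and did not pass (adjusted p = 0.241 and 0.363). RGA1 and RGA2, which act on the GTPase Cdc42, were 0.32 and 0.16 higher in SPO (adjusted p = 0.000691 and 0.0264) and 0.30 and 0.43 in YPD (adjusted p = 0.00496 and 0.00052).

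The pheromone-induced mating genes that Ste12 activates did not follow STE12 as a group. Of 17, 3 were higher and 5 lower in ime4 in SPO (median -0.0494 log2), where 34.1% of tested sets were higher and 39.4% lower. In YPD 6 were higher and 6 lower (median 0.0516), where 21.3% of tested sets were higher and 18.7% lower. Both medians were near those of all tested sets. Single genes ranged from -0.78 to 0.83 in SPO and from -2.69 to 2.03 in YPD, in both directions. PRM8, among those higher in YPD, was above background on no array. PRM5, a membrane protein gene, was 0.68 higher in SPO (adjusted p = 1.07e-05) and 2.03 in YPD (adjusted p = 8.2e-08). FIG1, a membrane protein gene of mating cells, was lower, by 0.78 in SPO (log2 -0.78, adjusted p = 0.00285) and by 2.69 in YPD (log2 -2.69, adjusted p = 9.21e-06, with 1 of 2 ime4 arrays above background). FUS1, needed for cell fusion, was lower in SPO (log2 -0.33, adjusted p = 0.00127) and higher in YPD (0.48, adjusted p = 0.000792). PRM4 was likewise lower in SPO (log2 -0.72, adjusted p = 2.34e-06) and higher in YPD (0.63, adjusted p = 5.94e-05). PRM3, a nuclear fusion gene, was 0.83 higher in SPO (adjusted p = 3.86e-05) and differed by 0.22 in YPD (adjusted p = 0.133). PRM6, a potassium transport gene, differed by -0.26 in SPO (adjusted p = 0.0699) and was lower in YPD (log2 -0.99, adjusted p = 0.000413, with 1 of 2 ime4 arrays above background).

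Genes of the filamentous growth branch, which shares Ste11, Ste7 and Ste12 with mating, were higher in ime4 in 6 of 8 cases in SPO (median 0.402, with 2 lower) and in 8 of 8 in YPD (median 0.43). Among all tested sets, 34.1% were higher and 39.4% lower in SPO, and 21.3% were higher and 18.7% lower in YPD. The surface mucin gene MSB2 was 1.55 log2 higher in SPO (adjusted p = 1.1e-08) and 0.89 in YPD (adjusted p = 1.78e-06). SHO1, its partner at the membrane, was 1.34 higher in SPO (adjusted p = 2.91e-08) and 0.45 in YPD (adjusted p = 0.00019). TEC1, which encodes the partner of Ste12 at filamentation genes, was 0.31 higher in SPO (adjusted p = 0.000655) and 0.98 in YPD (adjusted p = 3.91e-06). The pectinase gene PGU1 was 0.56 higher in SPO (adjusted p = 0.000128) and 0.85 in YPD (adjusted p = 7.36e-05), and the flocculin gene FLO11 0.49 in SPO (adjusted p = 8.83e-06) and 0.15 in YPD (adjusted p = 0.0445).

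Of 10 measured genes of other MAP kinase cascades, 3 were higher and 3 lower in ime4 in SPO (median -0.0251), and 2 were higher and 3 lower in YPD (median -0.00296). For all tested sets the shares were 34.1% higher and 39.4% lower in SPO, and 21.3% and 18.7% in YPD. None was past 2-fold in either medium. In the cell wall integrity cascade, the MAP kinase gene SLT2 was 0.51 higher in SPO (adjusted p = 1.39e-05) and 0.41 in YPD (adjusted p = 0.000502). The genes of its upstream kinases were lower, MKK1 by 0.42 in SPO (log2 -0.42, adjusted p = 4.24e-05) and 0.33 in YPD (log2 -0.33, adjusted p = 0.00138), and MKK2 by 0.43 in SPO (log2 -0.43, adjusted p = 1.62e-05) and 0.28 in YPD (log2 -0.28, adjusted p = 0.00147). The osmotic stress MAP kinase gene HOG1 was lower in SPO (log2 -0.34, adjusted p = 0.000101) and higher in YPD (0.36, adjusted p = 0.000507).

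**Figure D4:**
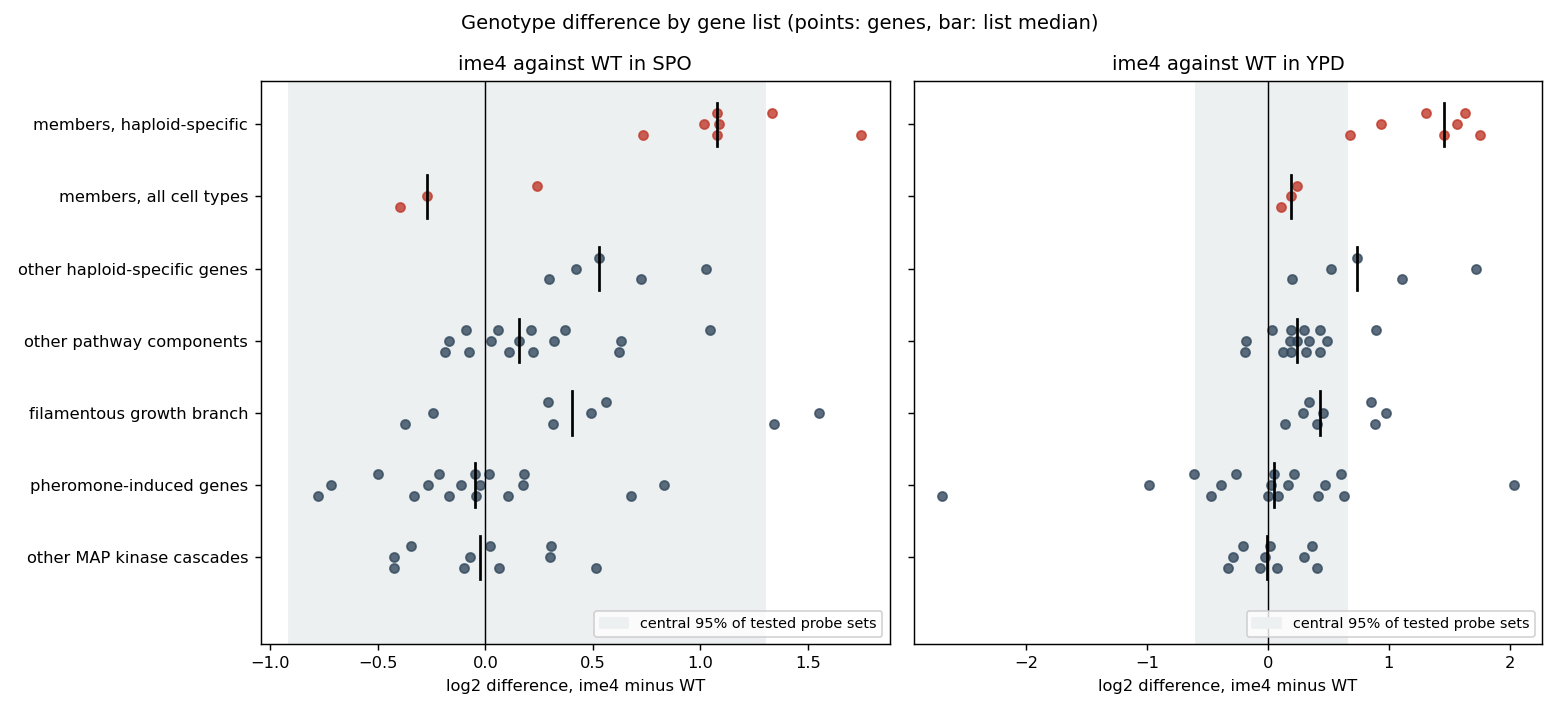
Difference in log2 intensity between ime4 and WT (horizontal axis) for genes of each list, in SPO on the left and YPD on the right. Points are genes, bars are list medians, and the grey band holds the central 95% of tested probe sets (-0.911 to 1.3 in SPO and -0.597 to 0.655 in YPD). The haploid-specific members have medians of 1.08 in SPO and 1.45 in YPD, against -0.0494 and 0.0516 for the pheromone-induced genes. In SPO only GPA1 (1.33) and STE18 (1.75) of the haploid-specific members lie past the band, and the others lie inside it. In YPD all of them lie past it, the lowest being STE12 at 0.678.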

How the data were processed

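The arrays were hybridized with biotinylated cDNA from 600 ng total RNA, per the labels' protocols. The authors deposited linear intensity values, summarised with RMA per the submitters' processing notes. The RMA version and settings are not given in the sources used here. Each difference is relative to the other transcripts on the arrays, whose tested medians ranged from 7.733 to 7.857 log2, so further scaling could still move values. Gene names came from the platform annotation of the probe sets, joined by gene identifier to the R64 gene table: of 9676 probe sets, 5359 were tested and 1412 belonged to the second species. Intensities were log2-transformed without an offset. Group means of all 9 arrays were fitted together (limma 3.58.1, R 4.3.3; lmFit and eBayes; median residual SD 0.0646 log2, 5 residual and 4.07 prior degrees of freedom), and p-values were two-sided and adjusted over all tested probe sets. The fit was tested on simulated data. The number of arrays limits the precision, and p-values measure the spread between these replicates.

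Named genes were all members, the 3 nearest neighbours of each and, per other list, up to 4 genes with the smallest p in each genotype comparison, with receptors, pheromones, other haploid-specific genes, IME4 and mating-type transcripts named in addition. Members, their classes and the lists were chosen with earlier results of these data known. The gap between the classes is therefore a description, and it was not tested. Alternatives were quantile normalization, centring, leaving out the dimmest 25% of probe sets, an intensity trend with a robust prior, the replicate number as a block, leaving out each array, and fitting only the groups compared. No member had a second probe set to try.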

Additional observations from a re-analysis of the deposited data

Results flagged for a closer look

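For 7 members the difference between ime4 and WT was not the same in SPO as in YPD, by the interaction test. The values, in log2 and as the SPO difference less the YPD difference, were -0.2299 for GPA1, -0.6802 for STE4, -0.2259 for STE5, -0.375 for FUS3, 0.3385 for STE12, -0.4635 for STE7 and -0.5025 for STE11. STE7 and STE11 were lower in ime4 in SPO, with YPD differences of the opposite sign that did not pass. The other 5 were higher in ime4 in both media. The calls of GPA1 and STE5 passed narrowly and were lost under several alternatives, as given above. Of all tested probe sets, 64.1% passed the same test, so the count of members was near the general share.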

How the results depend on the processing

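The calls of the 7 haploid-specific genes between ime4 and WT held in both media under every alternative in which they were fitted. Of these 7, FAR1 was not in the fit without the dimmest 25% of probe sets. KSS1, expressed in all cell types, was also not in that fit, and the class medians were not computed there. Of 730 values of members under alternatives, 687 kept direction and side of the threshold, 18 lost the call, 16 gained it and 9 changed sign. The values that changed sign had not passed in the fit as reported: with quantile normalization STE11 in ime4 (SPO minus YPD) was -0.00232, and with centring the KSS1 interaction was 0.0546. With 1 array left out, the SPO minus YPD difference in ime4 ranged from -0.0609 to 0.0237 for STE5 and from -0.00762 to 0.152 for STE11, and the KSS1 interaction from -0.0992 to 0.0858. The change of the GPA1 to STE4 ratio ranged from -0.000483 to 0.0636. The gap between the class medians (haploid-specific minus all cell types) was 1.28 to 1.42 for ime4 against WT in SPO, -0.538 to -0.278 for SPO against YPD in ime4 and 0.145 to 0.342 for the interaction with 1 array left out. With quantile normalization the gap for SPO against YPD in ime4 was -0.317, against -0.408 as reported.

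The replicate numbers did not pair the arrays: deviations from the group means of same-numbered arrays correlated between -0.0204 and 0.0314. With the replicate block, 9 members passed between the genotypes in YPD in place of 8, and 6 in the interaction in place of 7. Counts of members called in either direction stayed within 1.5 times under the alternatives run. The lone array left in a group is assumed to vary like the others. All 90 values also lay above the 99th percentile of the second species.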
